A study of Mus musculus with 10 samples.

Results

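Oligosaccharyltransferase is the endoplasmic reticulum enzyme that attaches N-glycans to new proteins, antibodies among them. The account covers 10 genes that code for its subunits, Ddost, Rpn1, Rpn2, Stt3a, Stt3b, Dad1, Ostc, Ost4, Tusc3 and Magt1, taken by symbol from the 47719 gene identifiers measured in mouse plasma cells. All 10 were found once, and all 10 passed the filter of a mean of at least 1 FPKM over the libraries (fragment counts scaled to transcript length and to the library total). RNA-seq libraries came from 2 groups of sorted splenic plasma cells, 5 of IgG1 cells and 5 of IgM cells. Both groups came from donor B cells with S1PR2-CreERT2 (a tamoxifen-inducible Cre under the control of S1PR2, a receptor gene active in germinal centre B cells), Ai14 (a tdTomato reporter that Cre turns on) and B1-8germ, an unmutated heavy chain that binds the hapten NP. The donor cells, which carried a congenic mark, went into wild-type hosts that had B cells of their own. Immunization with NP-CGG/alum marked day 0, tamoxifen followed on day 5 and on day 6, and tdTomato+ donor plasma cells were sorted by isotype on day 10. The labels give no age and do not tie a library to an animal. The p-values therefore measure how far these libraries scatter, which may be a technical spread.

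The enzyme takes a preassembled sugar chain from the lipid dolichol and moves it onto asparagine residues of a protein chain. Mammals build it in a pair of forms around different catalytic subunits. The form with STT3A sits at the translocon and acts on chains while they are being made, with OSTC and KRTCAP2 as its own subunits. The form with STT3B acts on sites that were skipped, and carries either MAGT1 or TUSC3, thioredoxin-like oxidoreductases. RPN1, RPN2, DDOST, DAD1, OST4 and TMEM258 belong to both. Plasma cells load this enzyme heavily, and the mu heavy chain of IgM has more N-glycan sites than the gamma 1 heavy chain of IgG1.

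The promoters of the catalytic subunits are shown first because the contrast between Stt3a and Stt3b carries the main difference. The sequences are the 250 bases before the RefSeq start of each gene on GRCm38.p6, written 5′ to 3′ on the gene's minus strand, at chr9:36767623-36767872 for Stt3a and chr9:115310469-115310718 for Stt3b. Capitals mark the letters CCAAT and CCACG on either strand, the outer parts of the endoplasmic reticulum stress element.
Stt3a: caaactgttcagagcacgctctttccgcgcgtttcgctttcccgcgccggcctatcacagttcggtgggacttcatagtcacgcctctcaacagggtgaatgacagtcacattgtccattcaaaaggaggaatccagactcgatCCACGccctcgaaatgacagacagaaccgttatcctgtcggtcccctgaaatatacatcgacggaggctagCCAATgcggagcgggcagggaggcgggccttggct
Stt3b: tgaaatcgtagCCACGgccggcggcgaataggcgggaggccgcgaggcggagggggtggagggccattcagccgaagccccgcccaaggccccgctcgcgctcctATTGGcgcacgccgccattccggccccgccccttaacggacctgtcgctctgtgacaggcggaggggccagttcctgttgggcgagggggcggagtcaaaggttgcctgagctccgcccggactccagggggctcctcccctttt
Each held 1 copy of CCAAT and 1 of CCACG, and they differed in base composition, with 56.0% G and C for Stt3a and 70.4% for Stt3b. The whole stress element, CCAAT and CCACG with 9 bases between them, contains both short motifs. It was found on neither strand of the 250 bases for any of the 8 members in the promoter table, and in 0.113% of all 32851 promoters of the same length. Likewise its variant, ATTGG and CCACG with 1 base between them (0.0304% of all promoters), and the XBP1 motif TGACGTGG (0.563%) were found on neither strand in any of the 8. CCAAT alone was in 7 of the 8 and in 33.8% of all promoters, and CCACG alone in 4 of the 8, Ost4, Rpn1, Stt3a and Stt3b, and in 28.3%. Members were counted by gene and the shares by promoter. Rpn2 had a promoter with 3 copies of CCAAT and another with none. These matches describe letters in a window and are not shown to be binding sites.

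The step size of low FPKM values put the depth at about 26360000 to 38250000 fragments in IgG1 libraries and 26870000 to 31110000 fragments in IgM libraries. Identifiers above 0 numbered 13286 to 13961 in IgG1 libraries and 15121 to 15800 in IgM libraries, without overlap. Immunoglobulin genes took 62.5% to 73.1% of summed FPKM in IgG1 libraries and 68.7% to 73.5% in IgM libraries. The sort was visible in the heavy chain genes. Ighg1 made up 97.6% to 98.3% of heavy chain constant FPKM in IgG1 libraries, against 9.21% to 17.3% in IgM libraries. Of the 6 plasma cell markers, 1 was higher (Xbp1, log2 difference 0.13) and 5 lower in IgG1 cells, all of them well above 0. The lower 5 were Tnfrsf17 (−1.49, 48.3 against 138 FPKM), Jchain (−0.88), Prdm1 (−0.86), Irf4 (−0.24) and Sdc1 (−0.13). Mature B cell markers summed to 79.2 to 98.5 FPKM in IgG1 libraries and 120.4 to 139.8 in IgM libraries, with 3 of 4 tested genes lower in IgG1 cells and Pax5 near 0 in both groups. Markers of T cells summed to at most 3.10 FPKM in IgG1 and 1.36 FPKM in IgM libraries, with Cd3e, Cd3d and Cd8a near 0 and Cd4 higher in IgG1 cells (1.87 against 0.280 FPKM). Those of NK cells, monocytes and macrophages, neutrophils, erythroid cells and platelets each summed to at most 4.83 FPKM in any library. The part of these marker differences in the results below was not tested.

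Subunits of oligosaccharyltransferase differed between the isotypes by unequal amounts. Stt3b was much lower in IgG1 cells, and Ddost, Rpn2, Ost4 and Ostc were modestly higher. Rpn1 and Magt1 were slightly lower, with a sign that turned for Rpn1 under quantile normalization and for Magt1 once length and GC trends were removed. In all, 4 of the 10 passed as higher and 3 as lower, and 3 (Dad1, Stt3a and Tusc3) did not pass the test (limma on log2 of FPKM + 1, Benjamini-Hochberg adjusted over all genes at 0.05). Differences of this size are common in these data. Over the 9900 genes tested, 38.3% passed, 18.1% higher and 20.2% lower in IgG1 cells. Of the members, 9 (all but Tusc3) averaged 50 FPKM or more, and the 7 that passed were among them. Of the 1756 tested genes at that level 68.5% passed, 49.0% higher and 19.5% lower, so 7 of the 9 lies near that share. In 6 of the 10, all at that level, the groups did not overlap, against 26.3% of all tested genes and 55.8% of those with at least 50 FPKM. The median log2 difference was 0.06 over the members and −0.05 over all tested genes. FPKM is a share of a library from a sorted population, so fewer cells that express a gene and less of its RNA per cell cannot be told apart. In all tested genes 1791 were higher and 2001 lower. That split was 2182 to 1510 under quantile normalization and 2114 to 1306 after the trends along length and GC content were taken out, with the median of all genes at 0.06 under either.

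**Figure D1:**
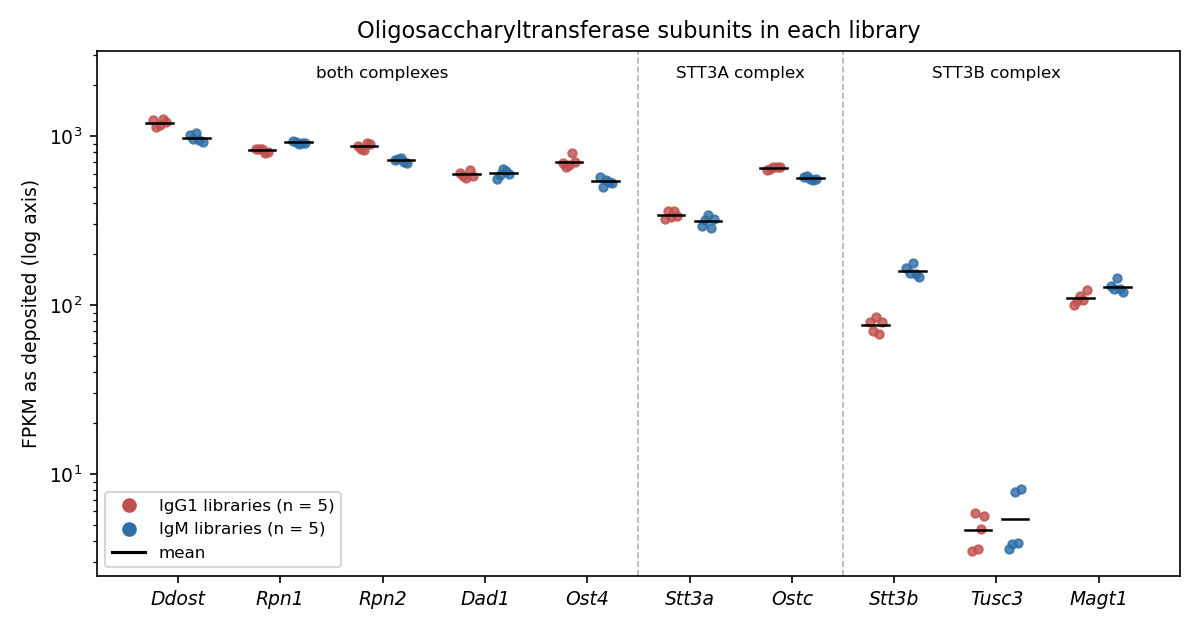
FPKM as deposited (log axis) of the 10 members in each library, IgG1 libraries in red left of IgM libraries in blue, with the mean as a black line (n = 5 each). Stt3b separates the groups most widely, at 66.9 to 84.4 FPKM in IgG1 libraries against 147 to 177 FPKM in IgM libraries, while Tusc3 is the lowest member in every library.

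Stt3b, the catalytic subunit of the form that fills skipped sites (ENSMUSG00000032437, chr9:115242581-115310421, minus strand, GRCm38), differed more than any other member. Stt3b stood at 79.0, 70.1, 84.4, 66.9 and 79.6 FPKM in IgG1 libraries, against 166, 155, 177, 153 and 147 FPKM in IgM libraries. Every IgG1 library lay below every IgM library. It averaged 76.0 ± 7.25 FPKM in IgG1 and 159 ± 11.9 FPKM in IgM libraries (SD, n = 5 each), 0.477 times the IgM level (log2 difference −1.06 with SE 0.08, adjusted p = 8.67e-09 by limma). By the size of its difference Stt3b ranked 663 of the 9900 tested genes. No 50-base word of its transcript occurred in the annotated transcripts of another gene.

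Stt3a, the catalytic subunit of the translocon form (ENSMUSG00000032116, chr9:36729344-36767679, minus strand), did not pass the test. Stt3a stood at 322, 361, 332, 359.5 and 338 FPKM in IgG1 libraries, against 295, 317, 340.4, 286 and 325 FPKM in IgM libraries. The groups overlapped, with IgM replicates 3 and 5 inside the IgG1 range. Stt3a averaged 342 ± 17.0 FPKM in IgG1 and 313 ± 22.0 FPKM in IgM libraries (SD, n = 5 each; log2 difference 0.13 with SE 0.06, adjusted p = 0.0698 by limma). It passed with median-ratio scaling (log2 difference 0.17, adjusted p = 0.0248), without IgG1 replicate 1 (0.15, adjusted p = 0.0495), without IgM replicate 3 (0.16, adjusted p = 0.0295) and with length and GC trends removed (0.52, adjusted p = 2.40e-06). The positive sign held in all 20 alternative settings.

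The balance between the catalytic subunits differed with isotype. Stt3b made up 19.7, 16.3, 20.3, 15.7 and 19.1% of the summed FPKM of Stt3a and Stt3b in IgG1 libraries, against 35.9, 32.9, 34.2, 34.8 and 31.1% in IgM libraries. The groups did not overlap, and the mean share was 18.2% ± 2.08 in IgG1 and 33.8% ± 1.85 in IgM libraries (SD, n = 5 each). Put as a ratio of levels per transcript length, Stt3a exceeded Stt3b 4.55-fold in IgG1 and 1.97-fold in IgM libraries. On the log2 scale the ratio was 2.16 ± 0.20 in IgG1 and 0.97 ± 0.12 in IgM libraries, a difference of 1.19 (SD, n = 5 each). The exact permutation test gave a two-sided p = 0.00794, or 0.0159 adjusted over 2 ratios. As a difference in medians (1.13) the ratio did not pass (adjusted p = 0.0952). The 2 ratios were chosen with earlier results of these data known. With 5 libraries a group no p under 0.00794 can be reached. A single scale factor for a library cancels in a ratio of FPKM taken within it, but only nearly so in the tested ratio, where 1 FPKM was added to each gene. Summed FPKM of Stt3a and Stt3b ran from 401 to 431 in IgG1 libraries and from 439 to 517 in IgM libraries, so every IgG1 library lay below every IgM library on the deposited scale, a sum chosen after its values were seen and not tested.

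**Figure D2:**
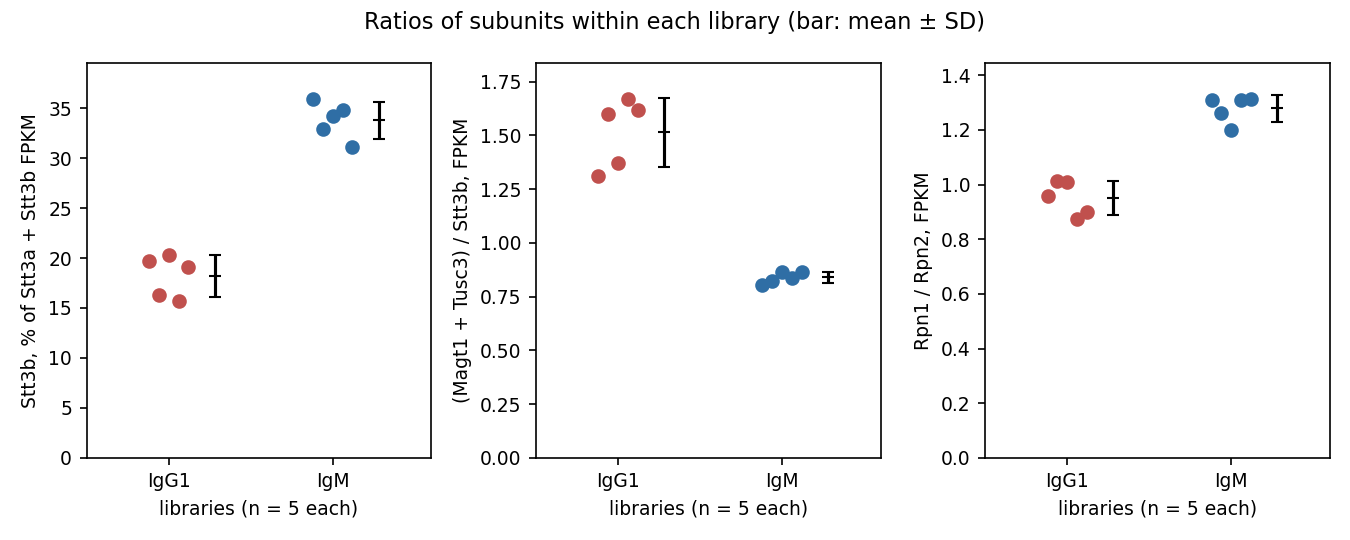
Ratios of subunits within each library, IgG1 libraries on the left and IgM libraries on the right of each panel (n = 5 each), with mean ± SD beside the points. Stt3b takes 15.7% to 20.3% of the catalytic FPKM in IgG1 libraries and 31.1% to 35.9% in IgM libraries, Magt1 plus Tusc3 over Stt3b lies above 1.3 in IgG1 and below 0.87 in IgM libraries, and Rpn1 over Rpn2 is at most 1.01 in IgG1 libraries and reaches 1.31 in IgM libraries.

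Of the oxidoreductase subunits of the STT3B form, Magt1 (chrX:105968084-106011906, minus strand) was lower in IgG1 cells by a small amount. Magt1 stood at 100.2, 106, 112, 107 and 123 FPKM in IgG1 libraries, against 129.9, 124, 145, 124 and 119 FPKM in IgM libraries. The ranges met, with IgG1 replicate 5 above the lowest IgM library, and the means were 109.8 ± 8.58 FPKM in IgG1 and 128 ± 10.2 FPKM in IgM libraries (SD, n = 5 each; log2 difference −0.22 with SE 0.07, adjusted p = 0.0184 by limma). The Magt1 call was lost with no filter (adjusted p = 0.0818), under eBayes with neither trend nor robust (adjusted p = 0.0659) and without IgM replicate 3 (adjusted p = 0.0551). With length and GC trends removed its log2 difference turned to 0.13 (adjusted p = 0.168).

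Tusc3, the alternative to Magt1 (chr8:39005845-39165114, plus strand), was expressed at a low level in both groups. Tusc3 stood at 3.48, 5.89, 3.59, 4.69 and 5.65 FPKM in IgG1 libraries, against 3.57, 3.85, 7.81, 3.92 and 8.09 FPKM in IgM libraries. IgM replicates 3 and 5 were the highest of the 10, and the groups overlapped (log2 difference −0.14 with SE 0.23, adjusted p = 0.659 by limma). Tusc3 made up 4.06% ± 0.863 in IgG1 and 4.05% ± 1.61 in IgM libraries of the summed FPKM of the pair (SD, n = 5 each), so Magt1 was the main oxidoreductase transcript in every library. The Magt1 to Tusc3 log2 ratio was 4.31 ± 0.26 in IgG1 and 4.39 ± 0.48 in IgM libraries, a difference of −0.08 (SD, n = 5 each). The exact permutation test gave a two-sided p = 0.754, and 0.754 adjusted over 2 ratios, and the sign turned without IgG1 replicate 2 or IgM replicate 1. Magt1 and Tusc3 together stood at 1.51 ± 0.160 times Stt3b in IgG1 and 0.839 ± 0.0264 times Stt3b in IgM libraries (SD, n = 5 each), a ratio chosen after its values were seen and not tested. Magt1 was above Stt3b in 5 of 5 IgG1 libraries, while Stt3b was above Magt1 in 5 of 5 IgM libraries. No 50-base word of Stt3a occurred in Stt3b or of Magt1 in Tusc3, so the paralogs do not share such stretches.

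Ostc, a small membrane subunit of the STT3A form (chr3:130695912-130709444, minus strand), was higher in IgG1 cells. Ostc stood at 628, 636, 659, 657 and 652 FPKM in IgG1 libraries, against 573, 578, 560.1, 549 and 559 FPKM in IgM libraries. The groups did not overlap and were tight (log2 difference 0.20 with SE 0.04, adjusted p = 4.94e-04 by limma), and the call held in all 20 alternative settings. The level of Ostc over that of its catalytic partner was 1.89 ± 0.0929 in IgG1 and 1.81 ± 0.127 in IgM libraries (ratio of FPKM to Stt3a, SD, n = 5 each), with overlapping ranges and no test. Krtcap2, the other subunit of that form and not among the 10 members, averaged 1005 ± 55.2 FPKM in IgG1 and 953 ± 44.1 FPKM in IgM libraries (SD, n = 5 each; log2 difference 0.08 with SE 0.04, adjusted p = 0.191 by limma) and did not pass, except under quantile normalization (0.28, adjusted p = 2.17e-04).

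Of the 5 members shared by both forms, 3 were higher, 1 (Rpn1) was lower and 1 (Dad1) did not pass. The sign of Rpn1 turned under quantile normalization. All 5 averaged over 50 FPKM, a level at which 49.0% of tested genes were higher and 19.5% lower. Ddost, also called OST48 (chr4:138304730-138312628, plus strand), was the most abundant member in every library. Ddost stood at 1245, 1127, 1165, 1257 and 1205 FPKM in IgG1 libraries, against 1018, 964, 1037, 943 and 919 FPKM in IgM libraries. All IgG1 libraries were above all IgM libraries (log2 difference 0.30 with SE 0.04, adjusted p = 3.07e-05 by limma). Ost4, the smallest subunit, which helps hold the catalytic subunit in place (chr5:30905885-30907788, minus strand), was also higher in IgG1 cells. Ost4 stood at 691, 656, 670.3, 789 and 699 FPKM in IgG1 libraries, against 575, 503, 553, 538 and 524 FPKM in IgM libraries. IgG1 replicate 4 was the highest and the groups did not overlap (log2 difference 0.38 with SE 0.05, adjusted p = 1.66e-05 by limma). Ost4 lies on the strand opposite Agbl5. Of its 50-base words, 49.2% occur in transcripts of other genes, and Agbl5 holds 605 of those 624 words. The kit keeps no strand, so reads there cannot be assigned by strand, and Agbl5 itself was at 5.84 FPKM in IgG1 and 5.48 FPKM in IgM libraries.

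The ribophorins Rpn1 (chr6:88084482-88105304, plus strand) and Rpn2 (chr2:157279017-157326319, plus strand), which are among the enzyme's larger subunits, had differences of opposite sign except under quantile normalization. Rpn1 stood at 835, 843, 836, 798 and 805 FPKM in IgG1 libraries, against 939.6, 928, 895, 914 and 915 FPKM in IgM libraries. Rpn1 was lower in every IgG1 library (log2 difference −0.16 with SE 0.04, adjusted p = 0.00202 by limma). Rpn2 stood at 872, 833, 829.6, 912 and 896 FPKM in IgG1 libraries, against 718, 735, 745, 699 and 697 FPKM in IgM libraries. Rpn2 was higher in every IgG1 library (log2 difference 0.27 with SE 0.04, adjusted p = 3.82e-05 by limma). Rpn1 was above Rpn2 in 2 of 5 IgG1 libraries and in 5 of 5 IgM libraries, with a ratio of FPKM of 0.950 ± 0.0622 in IgG1 and 1.28 ± 0.0480 in IgM libraries (SD, n = 5 each), a ratio chosen after its values were seen and not tested. The Rpn2 call held in all 20 alternative settings. The Rpn1 call was lost under eBayes with neither trend nor robust (adjusted p = 0.0735) and with length and GC trends removed (log2 difference −0.07, adjusted p = 0.131), and its log2 difference turned to 0.05 (adjusted p = 0.451) under quantile normalization.

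Dad1, named for the death of hamster cells that lose it (chr14:54235479-54254104, minus strand), did not pass the test. Dad1 stood at 606, 584, 566, 630.1 and 582 FPKM in IgG1 libraries, against 561, 589.7, 638, 625 and 597 FPKM in IgM libraries. The ranges overlapped almost fully (log2 difference −0.02 with SE 0.05, adjusted p = 0.764 by limma). With length and GC trends removed Dad1 came to 0.17 (adjusted p = 0.0126). Tmem258, a shared subunit that is not among the 10 members, averaged 1029.8 ± 51.1 FPKM in IgG1 and 739 ± 42.1 FPKM in IgM libraries (SD, n = 5 each; log2 difference 0.48 with SE 0.05, adjusted p = 2.67e-07 by limma), without overlap. Its neighbour Fen1 on the opposite strand, which shares 32 words of 50 bases with it, averaged 162 FPKM in IgG1 and 114 FPKM in IgM libraries.

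**Figure D3:**
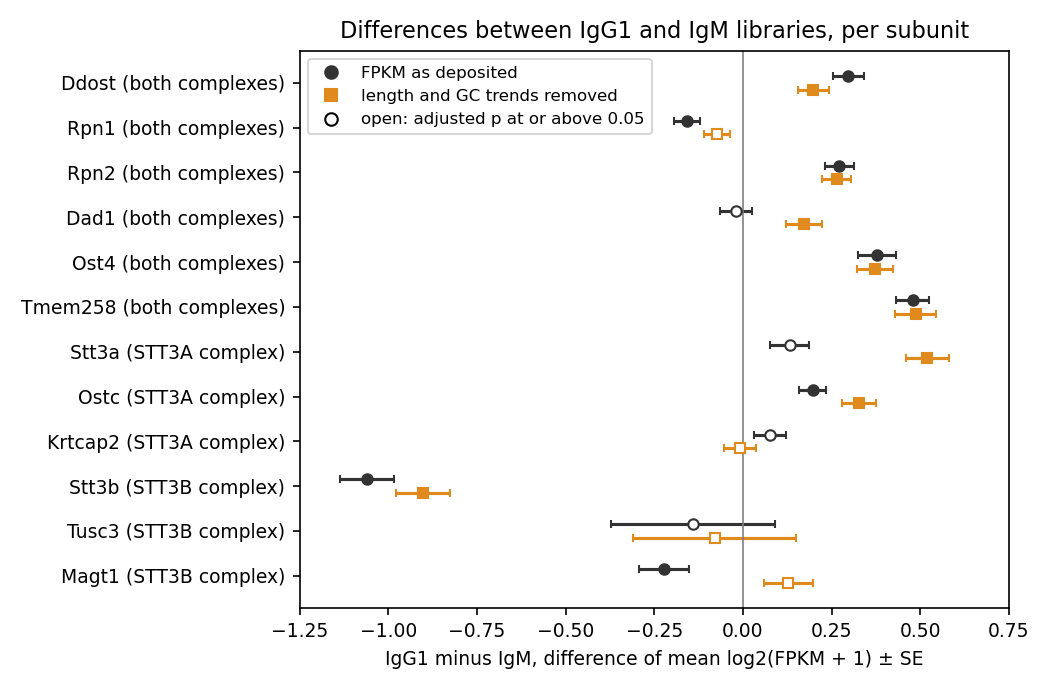
Difference of mean log2(FPKM + 1), IgG1 minus IgM, ± SE for the 10 members and for Tmem258 and Krtcap2, from the deposited FPKM (black circles) and with transcript length and GC trends removed (orange squares). Open symbols have an adjusted p at or above 0.05. Stt3b stays far below 0 either way (−1.06 and −0.90), Stt3a moves to 0.52 from 0.13, and Magt1 crosses 0.

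Transcript length moved with the group difference over the whole transcriptome (Spearman rho −0.24), and so did transcript GC content (0.30). Each member was set beside genes of its own length, and not beside genes of its own GC content or of its own level. At a mean of at least 50 FPKM, the level of all members but Tusc3, 49.0% of tested genes were higher and 19.5% lower. Tested genes under 1000 bases had a median log2 difference of 0.16, and those above 4000 bases one of −0.21, with a class from 1000 to 2000 bases at 0.14, from 2000 to 3000 at −0.04 and from 3000 to 4000 at −0.11. Ost4 (1144 bases) and Ostc (1067 bases) were higher and belonged to a class that was higher as a whole. Rpn1 (3633 bases, −0.16) and Magt1 (4531 bases, −0.22) lay close to the medians of their classes. Stt3b (4221 bases, −1.06) was far below the median of its class, and Stt3a (5867 bases, 0.13) was above it. Ddost (2120 bases, 0.30) and Rpn2 (2756 bases, 0.27) were also above theirs. Dad1 (3491 bases, −0.02) was above its class median and Tusc3 (1535 bases, −0.14) below. These lengths are of 1 annotated transcript a gene, which was not shown to be the expressed form. Removing the trends left Stt3b lower (−0.90, adjusted p = 6.31e-08) and Ddost (0.20, adjusted p = 0.00129), Rpn2 (0.26, adjusted p = 6.66e-05), Ost4 (0.37, adjusted p = 1.25e-05) and Ostc (0.33, adjusted p = 3.38e-05) higher. In that setting 6 members were higher and 1, Stt3b, was lower. Over all 9876 genes tested there, 2114 were higher and 1306 lower. The shares among genes with at least 50 FPKM were not computed for that setting. Length and GC trends were removed together, so the part of each was not tested.

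**Figure D4:**
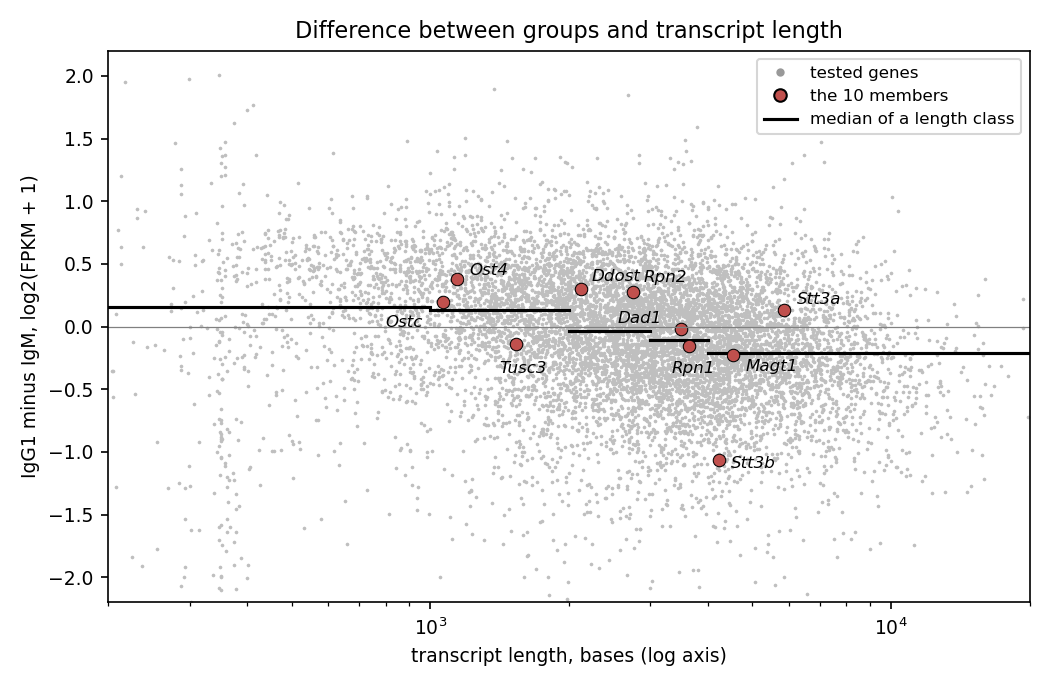
Log2 difference, IgG1 minus IgM, against transcript length (log axis) for 9876 tested genes in grey, of which 254 lie outside the axes, with the 10 members in red and the median of each length class as a black line. The class medians fall with length, and Stt3b lies far below and Stt3a above the line of the class over 4000 bases.

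Other genes of N-glycosylation were described by lists set with earlier results of these data known, and their counts stand beside the 38.3% of all tested genes that passed. Of 14 genes that assemble the sugar chain on dolichol, 2 were higher and 1 lower in IgG1 cells (median log2 difference −0.03). Alg8, which adds a glucose to the chain, averaged 83.0 ± 6.87 FPKM in IgG1 and 57.2 ± 2.47 FPKM in IgM libraries (SD, n = 5 each; log2 difference 0.53 with SE 0.07, adjusted p = 1.82e-05 by limma). Alg3, a mannosyltransferase, was at 52.2 FPKM in IgG1 and 38.5 FPKM in IgM libraries (adjusted p = 0.00546), and Alg14, which anchors the enzyme of the second sugar, was at 17.4 FPKM in IgG1 and 25.0 FPKM in IgM libraries (adjusted p = 0.012). Of 17 genes that supply dolichol and sugar donors, 1 was higher and 0 lower (median −0.04). That gene was Dpm3, a subunit of dolichol phosphate mannose synthase, at 197 FPKM in IgG1 and 155 FPKM in IgM libraries (adjusted p = 5.31e-04).

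Calreticulin, a lectin chaperone that binds newly glycosylated chains, was lower in IgG1 cells. Of 10 tested genes of glycan trimming and quality control, 1 was higher and 3 were lower (median −0.0032), and Uggt2 fell under the filter. Calr averaged 767 ± 42.0 FPKM in IgG1 and 1088 ± 57.0 FPKM in IgM libraries (SD, n = 5 each; log2 difference −0.51 with SE 0.05, adjusted p = 1.72e-07 by limma). Calnexin (Canx), in the same list, was at 227 FPKM in IgG1 and 217 FPKM in IgM libraries and did not pass (log2 difference 0.06, adjusted p = 0.533 by limma). Ngly1, which strips N-glycans from misfolded proteins, was at 35.7 FPKM in IgG1 and 50.8 FPKM in IgM libraries (adjusted p = 6.02e-04), and the disulfide isomerase Pdia3, which works with calreticulin, at 1129 FPKM in IgG1 and 1246 FPKM in IgM libraries (adjusted p = 0.00474). The gene that was higher was Engase, below 5 FPKM on average. All 7 genes of the Sec61 translocon and the TRAP complex, beside which the STT3A form sits, passed, 4 higher and 3 lower in IgG1 cells (median 0.13). Each averaged over 50 FPKM, a level at which 68.5% of tested genes passed, 49.0% higher and 19.5% lower. Sec61g averaged 1195 FPKM in IgG1 and 849 FPKM in IgM libraries (adjusted p = 5.29e-08), and Sec61b 1605 FPKM in IgG1 and 1217 FPKM in IgM libraries (adjusted p = 1.01e-06). Ssr2 and Sec61a1 were higher too. Ssr3 averaged 294 FPKM in IgG1 and 389 FPKM in IgM libraries (adjusted p = 3.82e-06), and Ssr1 and Ssr4 were also lower.

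**Figure D5:**
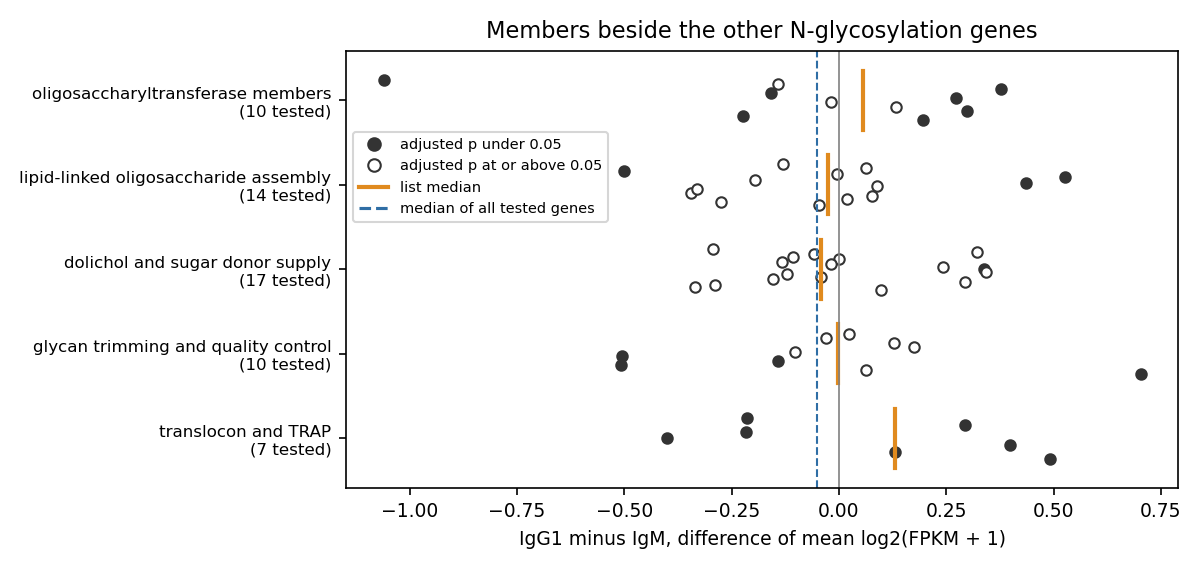
Log2 differences, IgG1 minus IgM, of the 10 members and of 4 lists of N-glycosylation and translocon genes, 1 point a gene, filled where the adjusted p was under 0.05, with the median of each list in orange and that of all tested genes as a dashed line. List medians lie between −0.04 and 0.13, and Stt3b is the lowest of all the points.

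Among 3207 other protein-coding genes averaging 20 FPKM or more, those most like Stt3b over the 10 libraries were Ccnl2 (Pearson r = 0.992), Filip1l (0.990), Gpcpd1 (0.990), Fnbp4 (0.987) and Fam214a (0.987), each lower in IgG1 cells. Ccnl2 was at 20.4 FPKM in IgG1 and 76.2 FPKM in IgM libraries. Those most like Stt3a were Rfc3 (r = 0.931), Psmc3 (0.926), Pmm2 (0.915), Ube2a (0.908) and Fbxo5 (0.902). These r are descriptions over 10 libraries that fall into 2 groups. After the group means were subtracted, the most alike were Cstb (0.850) for Stt3b and Racgap1 (0.914) for Stt3a. Ube2a, Rfc3 and Psmc3 stayed among the first 5 for Stt3a, and none of the 5 named for Stt3b stayed among its first 5. Each is the highest of 3207 r, and how high such a maximum runs among unrelated genes was not tested.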

How the data were processed

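RNA was measured in 10 libraries, 5 of IgG1 and 5 of IgM plasma cells, grouped by their titles. Per the labels' protocols, RNA came from the miRNeasy Micro kit and libraries were SMART-Seq mRNA HT LP (Takara). That chemistry copies whole transcripts and does not record strand. The submitters' processing notes name HISAT2 2.1.0, Cufflinks 2.2.1, Cuffdiff and GRCm38, without their roles or settings. The authors deposited FPKM values, per the file headers, in 1 file for each library, and no scaling across libraries is stated. Of 47719 identifiers, 47305 matched GENCODE M21 (GRCm38). An exact 0 can be a failed estimate.

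Genes averaging 1 FPKM or more entered limma 3.58.1 as log2 values, with a pseudocount of 1 added to the FPKM (R 4.3.3, trend and robust, group as the only term, two-sided, Benjamini-Hochberg adjustment over all 9900 genes). Differences are IgG1 minus IgM and understate changes of low genes. Ratios within libraries were compared by exact permutation of 252 arrangements (scipy 1.17.1). Plots and tables used matplotlib 3.10.9, pandas 2.3.3 and numpy 2.4.6 in Python 3.11.15. Length and GC trends (fitted in each library by natural splines with 4 degrees of freedom) used 1 transcript a gene, with values for 99.8% of tested genes. It was the longest transcript that the annotation marks as principal, or the longest of all where none was marked. Words of 50 bases were compared between GENCODE transcripts. Depth assumed a mean fragment of 200 bases, with 80.1% to 89.6% of low values within 0.1 of a whole fragment. On data simulated for this comparison over 9900 genes, recovery was 18% for a change of 1.2 times and 90% for 1.5 times. It was 88% for 2 times and 100% for 3 times, with 7 false calls. The changed genes were drawn only from well-expressed ones, so low genes such as Tusc3 were not represented. Only 50 genes were changed at each size, while 38.3% of genes passed in the real data. The adjustment was therefore stricter in the simulation, and these shares are not the power of the real comparison. The tests used all 10 libraries. The members and lists were chosen with earlier results of these data known, and so were the tests. Named genes were all 10 members, Krtcap2 and Tmem258, up to 3 passing genes a list with the largest difference and a mean of at least 5 FPKM, and the 5 genes most like Stt3a and Stt3b. Engase, the genes that overlap a member or share words with it and the background at 50 FPKM were chosen after the values were seen. So were the ratios given without a test, Canx, Sec61a1, Ssr1, Ssr2 and Ssr4. Alternatives were other pseudocounts, filters, scalings and eBayes settings, length and GC trends, a replicate block and each library left out. No batch is labelled, so none was modelled.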

Additional observations from a re-analysis of the deposited data

How the results depend on the processing

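The directions and calls of Stt3b (log2 difference −1.12 to −0.90), Ddost (0.20 to 0.56), Rpn2 (0.25 to 0.41), Ost4 (0.33 to 0.45) and Ostc (0.17 to 0.33) held in all 20 alternatives. The count of members lower in IgG1 cells, 3 on the deposited scale, was 1 with eBayes without trend or robust and 1 with length and GC trends removed, where the count of all lower genes came to 1306. The Stt3a to Stt3b ratio kept a difference of 1.13 to 1.24. It did not pass as a difference in medians (1.13, adjusted p = 0.0952) or with the replicate block (1.19, adjusted p = 0.125), where 5 pairs cannot go below 0.0625 before adjustment. Signs turned for Dad1 with median-ratio scaling (0.0169), quantile normalization (0.0007) and length and GC trends removed (0.17), for Rpn1 (0.0533) and Tusc3 (0.06) with quantile normalization, and for Magt1 (0.13) and Krtcap2 (−0.0072) with length and GC trends removed. The cause was not tested. Leaving out 1 library gave −0.0447 to 0.0019 for Dad1, −0.25 to 0.0005 for Tusc3 and −0.25 to 0.0292 for the Magt1 to Tusc3 ratio. Correlations of deviations from group means between same-numbered libraries ran from −0.04 to 0.10. Libraries of unlike number were not compared, so whether the numbers pair libraries stays unknown. The replicate block in limma changed no member's call (Stt3b −1.06, adjusted p = 8.73e-08). FPKM gives no counting interval, and the spread of Tusc3 (SE 0.23) limits what could be seen for it.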
